A study of Rattus norvegicus with 22 samples.

Results

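The kidneys of the 16 rats that received any treatment derived from ASC, human adipose-derived stromal cells, were pooled and compared with the kidneys of the 6 untreated rats. The pool was chosen by the treatment label and took 16 of the 22 rats analysed, namely 6 with ASC injected intraperitoneally (i.p.), 6 with ASC injected intravenously (i.v.) and 4 with ASC-derived conditioned medium (CM). All 22 were male PKD/Mhm (Cy/+) rats aged 8 months, and all carried 1 copy of the same Anks6 (SamCystin) missense mutation, the untreated rats included. The treatments were given once a month for 6 months, with 2000000 cells per injection. The labels give no route for the medium, the methods of the study give the i.v. route, and the series text gives the i.p. route. The rats with ABCB5+ cells were not analysed here. Heterozygous rats had been recognised by palpation of the abdomen, and the cells were human while the hosts were rats. None of the 4 groups is labelled as injected without cells or medium, so the injections as such and what was injected cannot be told apart.

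The Cy mutation lies in Anks6, a protein of the primary cilium, and heterozygous male rats slowly develop cysts that arise mainly from the proximal tubule. In a cystic kidney the proximal tubule cells lose their transport and oxidative functions, while matrix and inflammatory cells accumulate between the tubules. The healthy proximal tubule burns fatty acids in its mitochondria, takes up filtered solutes in its early segments and secretes organic ions and handles drugs in its last segment, where in rodents several genes are known to depend on androgens. The question put to the data was which genes differ from untreated kidneys in the same direction after all 3 treatments, and whether treated kidneys vary more from rat to rat than untreated ones.

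RNA extracted from whole tissue of the left kidney was sequenced, with 12195682 to 14734772 estimated counts per rat. Of the 17334 genes listed, 12867 passed the filter on low counts and were tested. Levels are given as CPM, the counts of a gene relative to the scaled total of its library (TMM scaling), and differences as log2 fold changes of the pooled treated rats over the untreated rats, with standard errors (SE) from edgeR. The cell types expected in kidney were all present, since the means of the proximal tubule, thick ascending limb and collecting duct markers were between 7.09 and 9.66 on the log2 CPM scale in every rat. No label gives a batch. The library numbers in the labels are 1, 12, 18, 22, 23 and 24 for the untreated rats and lie between 2 and 21 for the treated rats. Separate animals stand behind the samples, and the p-values measure the spread between them.

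Among the treated kidneys 5 stood apart from the untreated ones, and they came from all 3 treatments. The distance between a pair of kidneys was taken as the root mean square difference of log2 CPM over the 12867 genes. The mean distance to the untreated rats was 0.416 to 0.485 for the untreated rats themselves. It was 0.698 and 0.636 in i.p. ASC rats 1 and 3, 0.782 and 0.697 in i.v. ASC rats 1 and 3, and 0.726 in ASC-derived CM rat 1. In the other 11 treated rats it lay between 0.391 and 0.568. These 5 rats have the library numbers 5, 7, 3, 9 and 2 and the lowest TMM factors, 0.903 to 0.953 against 0.984 to 1.07 in the other 17. They were set aside as an alternative chosen after the data were seen, and results that rest on them are given with and without them. A different set of 4 i.v. ASC rats (1, 3, 4 and 5) had high means of the urothelial markers. They were 4.90, 5.91, 1.81 and 4.03 on the log2 CPM scale, above the highest untreated rat at 1.26. These 4 samples held RNA of urothelial genes, and results without them keep only rats 2 and 6 of the i.v. ASC group. Untreated rat 5, at 1.26, and i.p. ASC rat 3, at 0.345, lay above the other untreated rats, at -0.985 to -0.230. Both were kept, so results without the rats with urothelial RNA may still hold some.

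**Figure D1:**
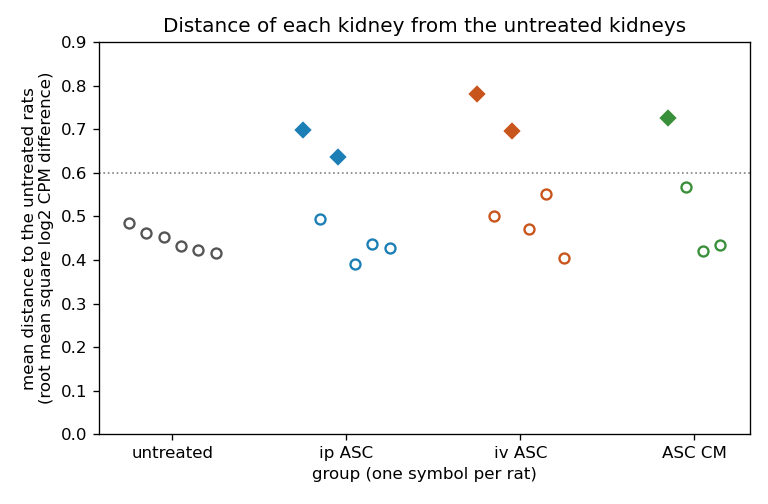
Mean distance of each kidney to the untreated kidneys (y axis, root mean square difference of log2 CPM over 12867 genes) by group (x axis), 1 symbol per rat. Filled diamonds are the 5 treated rats above 0.6 (dotted line), and the other 11 treated rats overlap the untreated rats or lie up to 0.568.

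The pooled treated and the untreated rats differed in none of the 12867 genes tested once p-values were adjusted. The quasi-likelihood test of edgeR called 0 genes (0%), with a smallest Benjamini-Hochberg adjusted p of 0.437, and DESeq2 called 0 with a smallest adjusted p of 0.108. Without adjustment, 1463 genes (11.4%) had a p below 0.05 by edgeR, 806 of them higher (6.26%) and 657 lower (5.11%) in treated rats, where 643 in all would have p below 0.05 if p-values were uniform. At any p, 47% of genes were higher and 53% lower in treated rats. Without the 5 rats these numbers were 418 higher and 320 lower, and with the library number as a covariate they were 90 higher and 309 lower. Single untreated rats weighed on them too, with 396 higher and 405 lower without untreated rat 1, 504 and 422 without rat 4, 430 and 394 without rat 5, and 395 and 425 without rat 6. Without the 4 rats with urothelial RNA they were 285 and 344. The split also moved with the scaling. On log2(TPM + 1), where the median of all genes was -0.0987 in place of -0.00985, 178 genes were higher and 1435 lower, so that 11% of these genes were higher in place of 55.1%. No gene had all 16 treated rats outside the range of the 6 untreated rats, 0% of the genes tested.

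The sign of the difference from untreated rats was shared by the 3 treated groups in 7999 genes (62.2%), of which 3770 were higher (29.3%) and 4229 lower (32.9%). The 3 comparisons share the 6 untreated rats, so a shared sign is a description and carries no test. The shares of 29.3% and 32.9% over all genes are the background for the counts of every list below. With an unadjusted pooled p below 0.05 besides, 796 were higher (6.19%) and 657 lower (5.11%). A difference of at least 0.5 on the log2 scale in each of the 3 groups was seen in 401 genes higher (3.12%) and in 51 genes lower (0.396%). When the 5 rats were left out, 3120 genes were higher and 2999 lower in all 3 groups. On log2(TPM + 1), where the median of all genes was -0.0987, the numbers were 1753 higher and 7602 lower.

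Among the genes higher in all 3 groups, Pip4k2a (Entrez 116723), a lipid kinase that makes phosphatidylinositol bisphosphate, had the smallest p. It was at 44.8 CPM at the lowest, 54.7 at the median and 57.4 at the highest in the 6 untreated rats, and at 55.4, 61.9 and 67.8 CPM in the 16 treated rats. All 16 treated rats lay above the untreated median and 13 of 16 above the highest untreated rat. The pooled log2 fold change was 0.22 (SE 0.05, adjusted p = 0.437 from edgeR), and 0.21 without the 5 rats. Serping1 (Entrez 295703), the C1 inhibitor that restrains the first step of complement and of contact activation, had 265, 308 and 348 CPM in untreated and 301, 402 and 462 CPM in treated rats. It was above the highest untreated rat in 11 of 16 treated rats, among them all 4 ASC-derived CM rats, at 404 to 462 CPM. Its pooled log2 fold change was 0.34 (SE 0.09, adjusted p = 0.437), and 0.33 without the 5 rats. For these 2 genes the groups overlapped, yet the difference was nearly the same with and without the rats that stood apart.

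Of the other higher genes, Tubb4b, a beta-tubulin of cilia and the cytoskeleton, had 144 to 182 CPM in untreated and 161 to 221 CPM in treated rats, with a pooled log2 fold change of 0.25 (SE 0.07) and 0.17 without the 5 rats. Mettl13, a methyltransferase of the translation factor eEF1A, was in a narrow band of 28.9 to 30.7 CPM in untreated rats and at 29.4 to 40.7 CPM in treated rats, 14 of which lay above the band. Lrrc29, a leucine-rich repeat gene, had a pooled log2 fold change of 0.55 (SE 0.16) and 0.35 without the 5 rats. Ccm2, a scaffold protein of endothelial junctions, was higher by 0.15 (SE 0.05) on the log2 scale, with 13 of 16 treated rats above the highest untreated rat. Sult2a1, a hydroxysteroid sulfotransferase, was near the limit of detection, at 0 to 0.458 CPM in untreated and 0 to 2.46 CPM in treated rats. Its 5 highest values, 1.70 to 2.46 CPM, were those of the 5 rats that stood apart. None of these genes passed the test.

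Among the genes lower in all 3 groups, Mesp2 (Entrez 293046), a basic helix-loop-helix transcription factor known from somite formation, had the smallest p of all genes. Untreated rats had 3.54 CPM at the lowest, 4.77 at the median and 6.02 at the highest, and treated rats 2.22, 3.40 and 3.92 CPM. All 16 treated rats were below the untreated median and 14 of 16 below the lowest untreated rat. The pooled log2 fold change was -0.59 (SE 0.13, adjusted p = 0.437 from edgeR and 0.108 from DESeq2), and the differences were -0.61 with i.p. ASC, -0.57 with i.v. ASC and -0.60 with ASC-derived CM. It was -0.58 with the 5 rats left out, and over all 37 alternative settings it ran from -0.67 to -0.50. Lama1 (Entrez 316758), the laminin alpha chain of embryonic and tubular basement membranes, had 27.2, 32.8 and 35.8 CPM in untreated rats and 14.4, 24 and 28.1 CPM in treated rats. In 15 of 16 treated rats it was below the lowest untreated rat, and the remaining one was i.p. ASC rat 4 at 28.1 CPM. The log2 fold change was -0.47 (SE 0.11, adjusted p = 0.437 from edgeR and 0.129 from DESeq2), and -0.39 without the 5 rats.

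Cdh6 (Entrez 25409), a cadherin of developing and proximal nephron epithelium, had 31.4 to 72.1 CPM in untreated and 24 to 47.5 CPM in treated rats. All 16 treated rats lay below the untreated median of 53.1 CPM, and the log2 fold change was -0.61 (SE 0.16), and -0.58 without the 5 rats. Casp12, a caspase tied to the endoplasmic reticulum, was at 16.5 to 30.4 CPM in untreated and 11.6 to 20 CPM in treated rats, with -0.47 (SE 0.12) and -0.37 without the 5 rats. Fhod3, a formin that assembles actin filaments, was at 62.9 to 95.6 CPM against 51.2 to 72.1 CPM, with -0.32 (SE 0.08) and -0.28 without the 5 rats. Tenm4, a teneurin of cell contacts, was low in all rats, at 2.30 to 7.27 CPM in untreated and 1.62 to 4.30 CPM in treated rats. For each of these 4 genes all 16 treated rats were below the untreated median, and the adjusted p was 0.437.

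**Figure D2:**
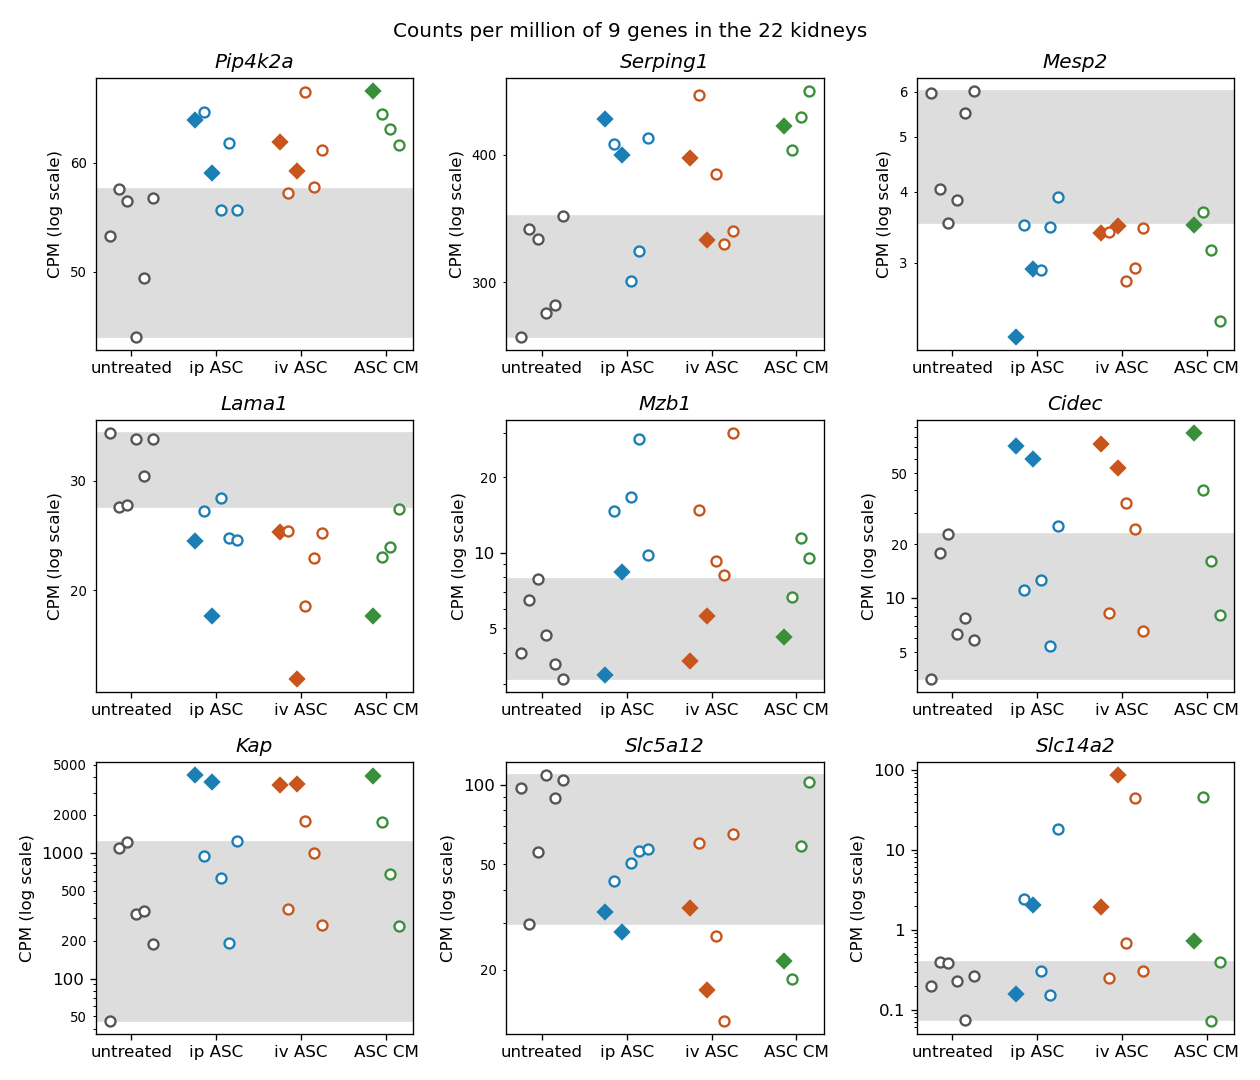
CPM (y axis, log scale) of 9 genes in each of the 22 kidneys by group (x axis), with the range of the 6 untreated rats shaded and the 5 rats that stood apart as filled diamonds. Mesp2 and Lama1 lie at or below the lower edge of the shaded range in nearly all treated rats, while the highest values of Kap and Cidec are those of the filled diamonds and the highest values of Mzb1 are open circles.

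The largest shared differences were in another kind of gene, one at a high level in a few treated kidneys. These genes are named after their values were seen, from those with the largest difference in the weakest of the 3 groups, and only where their function is known. Kap (Entrez 24937), the kidney androgen-regulated protein of the proximal tubule, had 45.9 CPM at the lowest, 336 at the median and 1219 at the highest in untreated rats, and 190, 1113 and 4158 CPM in treated rats. The 5 rats that stood apart had 3420 to 4158 CPM, above all 17 others. Its pooled log2 fold change was 1.71 (SE 0.72, adjusted p = 0.437) and 0.63 without them. Slc7a13, the cystine transporter of the last proximal tubule segment, ran from 12.6 to 638 CPM in untreated and from 37.0 to 3335 CPM in treated rats, with log2 fold changes of 2.06 (SE 0.95) and of 0.67 without the 5 rats.

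The same 5 rats held the 5 highest values of Cyp2c11, a steroid hydroxylase known as male-specific in rat liver, and of Cyp1a1, the cytochrome induced by aryl hydrocarbons. Cyp2c11 was at 36.5 to 98.9 CPM in them against 0.905 to 15.3 CPM in the other treated and 0.0655 to 9.27 CPM in the untreated rats. The log2 fold changes of Cyp2c11 and Cyp1a1 were 2.66 (SE 1.03) and 3.0 (SE 1.19), and 0.55 and 0.37 without the 5 rats. With the library number as a covariate they were 0.14 and 0.20, and those of Kap, Slc7a13 and Gclc were 0.35, 0.28 and 0.49. With 1 surrogate variable Cyp2c11 had 0.04 and Cyp1a1 -0.13. Gclc, the catalytic subunit that sets the pace of glutathione synthesis, had a log2 fold change of 1.79 (SE 0.74), and 0.74 without the 5 rats. Rgn, a calcium-binding lactonase, had 2.04 (SE 0.80) and 0.78, and Hnmt, which inactivates histamine, had 2.04 (SE 0.84) and 0.86. Further genes of this kind were the transporters Slco1a6 (1.86), Slc22a7 (1.95) and Slc7a12 (2.23), the retinol carrier Rbp4 (2.5) and the trefoil peptide Tff3 (2.10). Their SE ran from 0.80 to 1.07. Without the 5 rats they had 0.66, 0.86, 0.77, 1.02 and 1.05 in this order. With the library number they had 0.31, 0.41, 0.44, 0.58 and 0.52, and with 1 surrogate variable 0.08 to 0.33. All of these genes also ranged widely among the untreated rats, as the values of Kap and Slc7a13 show.

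Slc14a2, the urea transporter of the inner medulla, was high in kidneys that shared only i.v. ASC rat 3 with the 5 that stood apart. Its log2 fold change was the largest of the named genes, at 5.60 (SE 1.79, adjusted p = 0.437 from edgeR and 0.108 from DESeq2). Untreated rats had 0.0752 to 0.396 CPM, a few counts each, and 9 of 16 treated rats were above that range. Values of 18.2 to 86.6 CPM were found in i.p. ASC rat 6, i.v. ASC rats 3 and 5 and ASC-derived CM rat 2, and the treated median was 0.699 CPM. The log2 fold change was 5.28 with the 5 rats left out.

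Among the genes with large negative differences in all 3 groups, Car3, the carbonic anhydrase III of adipose and muscle tissue, had 55.8, 70.4 and 180 CPM in untreated and 11.4, 41.2 and 67.7 CPM in treated rats. All 16 treated rats were below the untreated median, with a log2 fold change of -0.97 (SE 0.26) and -0.79 without the 5 rats. It was -0.60 without untreated rat 1, the rat at 180 CPM. Thbs1, thrombospondin-1, a matrix protein that activates TGF-beta, had 194 to 616 CPM against 112 to 345 CPM, with -0.71 (SE 0.22) and -0.51. Megf6, an EGF-repeat protein, had -0.88 (SE 0.27) and -0.76, but -0.51 without untreated rat 1, which was at 27.2 CPM. Angptl2, a secreted inflammatory angiopoietin-like factor, had -0.70 (SE 0.27) and -0.45. These 4 were also named after their values were seen, and none passed the test at an adjusted p of 0.437.

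Most genes of the metabolic lists were higher in treated rats, by little without the 5 rats or with the library number as a covariate. The 5 rats were chosen after the data were seen by their distance, and the library numbers differ between treated and untreated rats. Values without those rats or with that number are therefore descriptions, and the source of the differences was not tested. Of 33 complex I subunits tested, 32 were higher in all 3 treated groups, and of 38 subunits of complexes II to V it was 35, with 0 lower in either list. Over all genes this share was 29.3% for higher and 32.9% for lower. The medians of the pooled log2 fold changes were 0.19 and 0.18, against -0.00985 over all genes. Only 4 genes in each list had an unadjusted p below 0.05, and 0 passed after adjustment. Ndufv3, a small complex I subunit, was at 133 to 157 CPM in untreated and 130 to 194 CPM in treated rats, and Cox5a, a subunit of cytochrome c oxidase, at 242 to 324 and 257 to 442 CPM. Without the 5 rats, all of which lay above the highest untreated rat in the mean of either list, the medians were 0.07 and 0.05. They were 0.04 and 0.03 with the library number as a covariate, and 0.04 in both with 1 surrogate variable, an unnamed pattern that sva estimates from the data.

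In the citrate cycle 20 of 25 genes were higher in all 3 groups, with a median of 0.13, and in fatty acid oxidation and PPAR targets 23 of 34 were higher and 3 lower, with a median of 0.20. Amino acid breakdown had 25 higher and 2 lower of 31, with a median of 0.30. Drug metabolism and glutathione had 21 higher and 0 lower of 28, with a median of 0.47, and 12 of its genes had an unadjusted p below 0.05 in the higher direction, where 6.26% of all genes did. These 4 medians were 0.005, 0.05, 0.06 and 0.15 without the 5 rats, and 0.04, 0.10, 0.14 and 0.17 with the library number. With 1 surrogate variable those of the citrate cycle, fatty acid oxidation and amino acid breakdown turned sign, to -0.02, -0.004 and -0.03, and that of drug metabolism was 0.06. Haao, which makes quinolinic acid from tryptophan products, had 20.1, 71.8 and 162 CPM in untreated and 36.0, 179 and 540 CPM in treated rats, with a log2 fold change of 1.41 (SE 0.55) and 0.61 without the 5 rats. Cyp4a2, a fatty acid omega-hydroxylase and PPAR-alpha target, had 521, 1529 and 2447 CPM against 778, 2242 and 6788 CPM, with 1.14 (SE 0.46) and 0.38. Aco1, the cytosolic aconitase, had 0.51 (SE 0.23) and 0.12, and Cyp2j3, an epoxygenase of arachidonic acid, had 0.53 (SE 0.19) and 0.31. Members of large cytochrome and glutathione transferase families may share reads, which makes their single values uncertain.

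Gluconeogenesis and glycolysis were not set apart in this way. Gluconeogenesis had 8 genes higher and 4 lower in all 3 groups of 15, with a median of 0.04, and glycolysis had 8 and 4 of 20, also with a median of 0.04. On log2(TPM + 1) the medians were -0.05 and -0.06, where that of all genes was -0.0987. Pgam1, a glycolytic mutase, was at 356 to 409 CPM in untreated and 369 to 547 CPM in treated rats (0.17, SE 0.08). Of 31 proteasome subunits 19 were higher and 0 lower, with a median of 0.09, and Psmd13 was at 91.5 to 103 and 91.6 to 124 CPM. The median of the proteasome list was -0.008 on log2(TPM + 1), still above that of all genes on this scale. Of 47 cytosolic ribosome genes 25 were higher and 2 lower, with a median of 0.07, and of -0.03 on log2(TPM + 1). Rpl38 itself had 5.57 to 14.7 CPM in untreated and 0 to 13 CPM in treated rats, with 6 treated rats at 0. Ribosomal genes have near-identical copies, so its counts are uncertain.

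Cyp4a2 and Haao had the smallest p of their metabolic lists and their 5 highest values in the 5 rats that stood apart. Both held also for Ndufv3, Cox5a, Aco1 and Pgam1, whose promoters are not shown. As examples, the 250 bases before the starts of Cyp4a2 and Haao are shown. They were taken from RefSeq in the rat build GRCr8, which gave a promoter for 62 of the 73 named genes, on the minus strand at chr5:134170909-134171158 for Cyp4a2 and on the plus strand at chr6:16598075-16598324 for Haao. Capitals mark the nuclear receptor half-site AGGTCA, searched on both strands (TGACCT on the other), which PPAR, HNF4 and related receptors use as part of longer sites.
Cyp4a2: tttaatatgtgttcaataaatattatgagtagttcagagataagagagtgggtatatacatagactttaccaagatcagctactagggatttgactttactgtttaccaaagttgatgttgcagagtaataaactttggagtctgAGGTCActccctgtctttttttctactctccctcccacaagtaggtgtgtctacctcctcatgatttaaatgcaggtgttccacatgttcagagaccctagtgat
Haao: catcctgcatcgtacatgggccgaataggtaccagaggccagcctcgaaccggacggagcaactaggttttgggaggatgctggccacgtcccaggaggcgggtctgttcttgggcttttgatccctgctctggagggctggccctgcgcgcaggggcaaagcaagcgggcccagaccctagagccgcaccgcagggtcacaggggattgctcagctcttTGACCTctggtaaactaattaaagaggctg
The half-site begins 105 bases before the start of Cyp4a2 and 30 bases before the start of Haao. It is common, being present in 14.1% of the 33469 promoters of this length and in 9 of the 62 named genes, and a match is a description of the letters only. Cyp4a2 and Haao are examples from several genes that met the same description, so their matches do not measure how often it occurs.

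**Figure D3:**
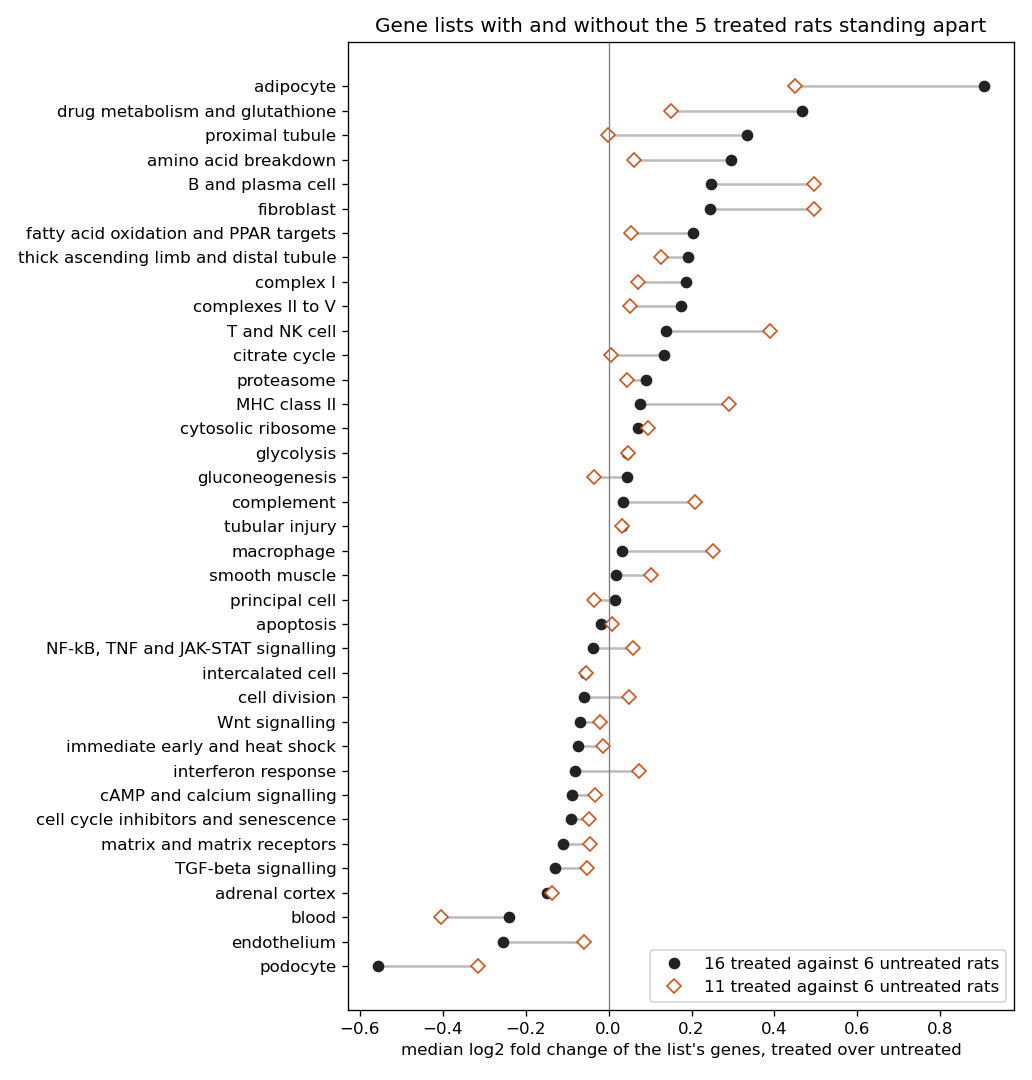
Median pooled log2 fold change (x axis) of the tested genes of 37 lists (y axis) for all 16 treated rats (filled circles) and for the 11 left without the rats that stood apart (open diamonds), each against the 6 untreated rats. The urothelium list, at 3.34 and 1.58, is beyond the axis and left out, and most of the metabolic lists lie nearer to 0 as open diamonds.

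Matrix and signalling lists were lower as lists, by little. In matrix and matrix receptors 20 of 36 genes were lower in all 3 groups (55.6%) and 5 higher, with a median of -0.11. Over all genes 32.9% were lower and 29.3% higher in all 3 groups. TGF-beta signalling had 17 lower and 5 higher of 34 (-0.13), and cAMP and calcium signalling 21 and 3 of 38 (-0.09). Cell cycle inhibitors and senescence had 14 and 3 of 23 (-0.09), and Wnt signalling 15 and 7 of 35 (-0.07). The shares lower were 50%, 55.3%, 60.9% and 42.9% in this order, that of Wnt signalling being the nearest to all genes. The medians of the 5 lists were nearer to 0 without the 5 rats, at -0.05, -0.05, -0.03, -0.05 and -0.02. With the library number as a covariate they were -0.06, -0.05, -0.02, -0.05 and 0.001, so that of Wnt signalling turned sign. Id2, an inhibitor of helix-loop-helix factors and a target of BMP signals, was at 142, 147 and 166 CPM in untreated and 95.5, 132 and 150 CPM in treated rats, below the lowest untreated rat in 14 of 16 (-0.23, SE 0.07, and -0.21 without the 5 rats). Gsk3b, the kinase that marks beta-catenin for decay, had -0.20 (SE 0.07), and Pde4a, a phosphodiesterase that degrades cAMP, had -0.32 (SE 0.10). Gadd45g, a stress-induced growth arrest gene, went the other way from its list, at 30.3 to 57.8 CPM in untreated and 37.2 to 100.5 CPM in treated rats (0.46, SE 0.18).

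Apoptosis genes had 14 lower and 9 higher in all 3 groups of 36 (median -0.02), and cell division genes 14 and 5 of 30 (-0.06, and 0.05 without the 5 rats). The shares lower were 38.9% and 46.7%, where 32.9% of all genes were lower and 29.3% higher in all 3 groups. Tyms, the thymidylate synthase of dividing cells, had -0.26 (SE 0.12). In NF-kB, TNF and JAK-STAT signalling 13 were lower and 8 higher of 39 (-0.04, and 0.06 without the 5 rats). Its share lower was 33.3%, near that of all genes. Nfkbib, an inhibitor of NF-kB, was above the highest untreated rat in 12 of 16 treated rats (0.24, SE 0.07). Interferon response genes had 14 lower and 2 higher of 27 (-0.08, and 0.07 without the 5 rats). Rsad2, the antiviral viperin, had 19.2 to 35.0 CPM in untreated and 13.7 to 40.6 CPM in treated rats (-0.40, SE 0.18). Complement had 9 higher and 5 lower of 23 (0.03, and 0.21 without the 5 rats), and MHC class II 6 higher and 0 lower of 8 (0.08, and 0.29). On log2(TPM + 1) these 2 medians were -0.13 and -0.07, where that of all genes was -0.0987. RT1-Bb, a class II beta chain of a family with similar copies and so of uncertain counts, had 535 to 879 CPM in untreated and 282 to 1158 CPM in treated rats (0.11, SE 0.20, and -0.03 on log2(TPM + 1)). The immediate early and heat shock list, which follows tissue handling, had 8 lower and 3 higher of 17 (-0.07), and Fosb, an AP-1 factor, had 2.85 to 17.7 CPM in untreated and 1.67 to 10.8 CPM in treated rats (-0.93, SE 0.37).

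The proximal tubule markers did not move as 1 block. Of 12 markers 8 were higher and 3 lower in all 3 groups, with a median of 0.33, and of -0.001 without the 5 rats. Slc5a12 (Entrez 362188), the lactate transporter of the early proximal tubule, was lower, with 29.9, 93.0 and 109 CPM in untreated and 12.8, 38.8 and 102 CPM in treated rats. Only 1 of 16 treated rats was above the untreated median, and the log2 fold change was -0.92 (SE 0.33) and -0.69 without the 5 rats. Slc5a2, the glucose transporter SGLT2 of the early segment, had -0.78, and Slc7a7, a basolateral amino acid exchanger, -0.49. Kap had 1.71, Aqp1, the water channel of proximal tubule and thin limb, had 0.85, and Lrp2, the uptake receptor megalin, had 0.54. In RNA of whole kidney tissue, fewer cells of a type and less RNA per cell cannot be told apart.

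In the thick ascending limb and distal tubule list, Cldn10, a claudin of cation-selective junctions, had 21.7, 42.1 and 70.4 CPM in untreated and 34.1, 91.5 and 195 CPM in treated rats (1.11, SE 0.38, and 0.75 without the 5 rats). Slc12a1, the target of loop diuretics, had 0.67, and Slc12a3, the target of thiazides, had -0.46. Of the 7 markers 4 were higher and 2 lower in all 3 groups. Of 7 principal cell markers 4 were higher and 3 lower in the pooled fit, with 1 higher and 2 lower in all 3 groups. Of 6 intercalated cell markers 2 were higher and 4 lower, with 1 higher and 1 lower in all 3 groups. Principal and intercalated cell markers had medians of 0.02 and -0.06, and the first was -0.09 on log2(TPM + 1). On that scale the median of all genes was -0.0987. Fxyd4, a regulator of the sodium pump in collecting duct, had 20.8 to 61.6 CPM in untreated and 24.3 to 190 CPM in treated rats (0.68, SE 0.37), with 0.42 without i.v. ASC rat 3 and 0.22 without the 4 rats with urothelial RNA. Slc4a1, the anion exchanger of intercalated and red cells, had 158 to 362 and 188 to 712 CPM (0.29, SE 0.23), with 0.17 without untreated rat 1, 0.19 without i.v. ASC rat 5 and 0.14 without the 4 rats with urothelial RNA. Among tubular injury markers 1 was higher and 1 lower in all 3 groups of 8 (0.03, and -0.09 on log2(TPM + 1)), and osteopontin, Spp1, had 7801 to 13850 CPM in untreated and 6809 to 13470 CPM in treated rats.

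All 6 podocyte markers were lower in all 3 groups, with a median of -0.56, and 9 of 16 treated rats had a mean of these markers below the lowest untreated rat. The mean ran from 5.72 to 6.75 on the log2 CPM scale in untreated and from 4.22 to 6.69 in treated rats. Nphs1, nephrin of the slit diaphragm, had 93.5, 115 and 172 CPM in untreated and 47.5, 90.1 and 146 CPM in treated rats (-0.44, SE 0.22), and none of the 6 had an unadjusted p below 0.05. Of 8 endothelial markers 7 were lower in all 3 groups, with a median of -0.26. Ehd3, a marker of glomerular endothelium, had 38.3 to 68.2 CPM in untreated and 21.3 to 66.7 CPM in treated rats (-0.39, SE 0.23). The medians without the 5 rats were -0.31 for podocytes and -0.06 for endothelium. Podocytes sit in the cortex, Slc14a2 marks the inner medulla and uroplakins the renal pelvis. How much of each zone a sample held was not recorded in the sources used here. The part of the sampled zone in these differences was not tested.

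Fibroblast, T and NK cell and macrophage markers were low in the 5 rats. Of 6 fibroblast markers 5 were higher and 0 lower in all 3 groups, with a median of 0.24, and of 0.50 without the 5 rats. The mean of the list was below the lowest untreated rat in all 5 of those rats and above the highest in 9 of the other 11. Those 5 rats were chosen by their distance over all genes, so these counts are descriptions. Lum, the collagen-binding proteoglycan lumican, had 3.56 to 7.76 CPM in untreated and 2.31 to 16.1 CPM in treated rats (0.53, SE 0.32). Mzb1 (Entrez 291675), a chaperone of antibody assembly in B and plasma cells, had 3.14, 4.35 and 7.84 CPM in untreated and 3.25, 9.42 and 30.1 CPM in treated rats. It was above the highest untreated rat in 11 of 16 treated rats, with a log2 fold change of 1.23 (SE 0.41, adjusted p = 0.437), and of 1.55 without the 5 rats. All 4 tested B and plasma cell markers were higher in all 3 groups, the other 3 by 0.22 to 0.25 in the pooled log2 fold change. In the mean of this list only 1 of the 5 rats was below the lowest untreated rat. Cd3d, a chain of the T cell receptor complex, had 0.35 (SE 0.28), and 0.61 without the 5 rats. T and NK cell markers had 4 higher and 2 lower of 7 (0.14, and 0.39 without the 5 rats), and macrophage markers 2 higher and 0 lower of 8 (0.03, and 0.25). On log2(TPM + 1) these 2 medians were -0.02 and -0.14, where that of all genes was -0.0987. Smooth muscle markers had none with a shared sign of 5, and Tagln, a smooth muscle actin-binding protein, had -0.13 (SE 0.21).

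Markers of tissues outside the kidney were few. Cidec (Entrez 500292), a lipid droplet protein of fat that PPAR receptors also induce in other cells, had 3.54, 7.02 and 23 CPM in untreated and 5.43, 24.9 and 84.0 CPM in treated rats (1.64, SE 0.60, and 0.72 without the 5 rats). Of the 5 listed adipocyte genes only Cidec and Adipoq passed the filter, and Adipoq, the adipokine, had 0.17, so the defining genes Plin1, Lep and Ucp1 did not reach the level for testing. Of the 5 adrenal genes 2 were tested, with Star at 0.393 to 1.36 CPM in untreated and 0.0808 to 1.77 CPM in treated rats. Blood genes had 1 higher and 2 lower of 6 (-0.24), and Hba-a1, alpha-globin, had 107 to 898 CPM in untreated and 63.8 to 600 CPM in treated rats, with near-identical gene copies.

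The 3 treated groups differed from each other in 9 genes (0.0699%) at an adjusted p below 0.05 when edgeR tested the 3 groups together. These were Krt5, Upk1b, Sptssb, Upk3a, Anxa8, Upk2, Sprr1a, Fat2 and Krt15, and each was highest after ASC i.v. Most are known from urothelium or other layered epithelium. Upk1b, a uroplakin of the urothelial surface, had 0.851 to 1.81 CPM in untreated rats, 40.4, 64.1, 3.41 and 11.9 CPM in i.v. ASC rats 1, 3, 4 and 5, and 0.321 to 1.84 CPM in the other 12 treated rats. Its adjusted p among the treated groups was 0.0283, and that of Fat2, a giant cadherin of squamous cells, 0.0476. The same 4 rats carried the highest values of both. Without these 4 rats 0 genes differed among the treated groups. They were chosen by their urothelial markers, 4 of which are among the 9 genes, and only i.v. ASC rats 2 and 6 were left. This 0 is therefore no test of the difference. DESeq2 called 26 genes, and 359 (2.79%) had an unadjusted p below 0.05 by edgeR. The count was also 0 without any single i.p. ASC rat other than rat 3, without any single ASC-derived CM rat, or without i.v. ASC rat 1 or 3. It was 4 without i.v. ASC rat 5 or untreated rat 1, 2, 4 or 6, 5 without untreated rat 3, and 14 and 18 without i.v. ASC rats 2 and 6. All 6 urothelial markers tested were higher in the pooled fit, with a median of 3.34, but 0 had the same sign in all 3 groups. Without the 4 rats, which were chosen by this list, its median was -0.54.

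Treated kidneys varied more from rat to rat than untreated kidneys in most genes. The standard deviation of log2 CPM within the treated groups was larger than that of the untreated rats in 10039 genes (78%), with median values of 0.240 and 0.169. The median log2 ratio of the 2 was 0.47, where equal spread gives 0.0626 with these numbers of rats. It was 0.41 for the i.p. route, 0.45 for the i.v. route and 0.35 for ASC-derived CM, each against the same 6 untreated rats. With the 5 rats left out it was 0.18. These rats were chosen for standing apart, so a smaller ratio without them follows from the choice.

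**Figure D4:**
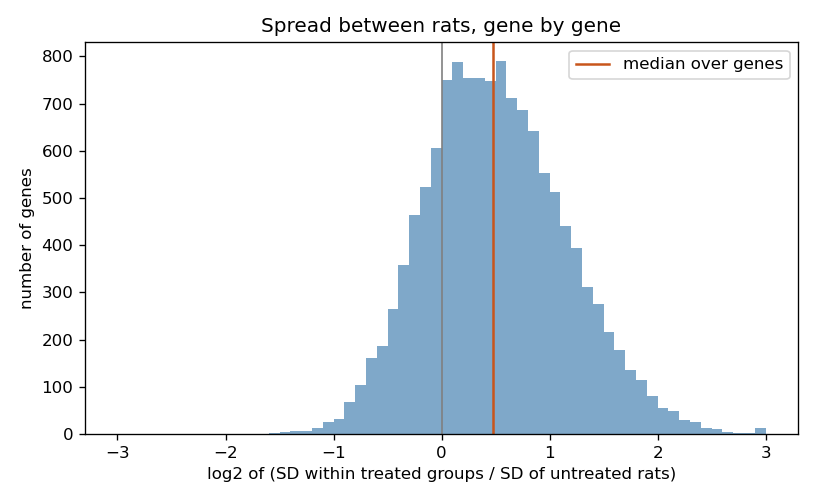
Number of genes (y axis) by the log2 ratio of the standard deviation within treated groups to that of untreated rats (x axis), over 12867 genes, with values beyond 3 placed in the outer bars. The median of 0.47 (line) lies above 0, and 78% of genes lie above 0.

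Over all genes at once, the mean distance was 0.445 for the 15 pairs of untreated rats, which ranged from 0.357 to 0.542, and 0.571 for the 120 pairs of treated rats, which ranged from 0.336 to 0.904. The difference of 0.127 had a two-sided exact permutation p of 0.0777 over all 74613 relabellings of the 22 rats. For single treatments the differences were 0.109 for i.p. ASC (exact permutation p = 0.249), 0.172 for i.v. ASC (exact permutation p = 0.0952) and 0.136 for ASC-derived CM (exact permutation p = 0.324), and the 4 values adjusted by Benjamini-Hochberg were 0.190, 0.324, 0.190 and 0.324 in this order. Without the 5 rats the difference was 0.0292 (exact permutation p = 0.524). These rats were chosen by their distance, so a smaller difference without them follows from the choice and this p is no test of spread. The difference passed 0.05 without untreated rat 1, at 0.147 (exact permutation p = 0.0455), and without i.p. ASC rat 6, at 0.140 (exact permutation p = 0.0433). With all 22 rats the wider spread of the treated rats did not pass the test.

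Gene by gene, limma on the absolute deviations from the group means called 0 of 12867 genes, with a smallest adjusted p of 0.144. An F test of variances also called 0. In simulated data with a very large added spread in treated rats, limma recovered only 32 of 200 such genes and the F test 163. The 0 from limma therefore says little about larger spread in treated rats. Without adjustment, 1648 genes (12.8%) had a larger and 164 (1.27%) a smaller spread in treated rats at p below 0.05 by limma. Lyve1, the hyaluronan receptor of lymphatic vessels and some macrophages, was at 36.9 to 41.0 CPM in all 6 untreated rats and at 21.3 to 44.2 CPM in treated rats, with 10 below and 4 above the untreated range. Entpd1, the ectonucleotidase CD39 of endothelium and leukocytes, was at 55.3 to 70.6 CPM in untreated and 25.2 to 80.9 CPM in treated rats, with 8 below and 4 above. Vxn, a neuronal differentiation gene, was at 9.78 to 11.3 CPM against 5.52 to 18.5 CPM, with 7 below and 8 above. The standard deviations of log2 CPM in treated and untreated rats were 0.37 and 0.06 for Lyve1, 0.59 and 0.12 for Entpd1, and 0.57 and 0.07 for Vxn. Their adjusted p-values from limma were 0.229, 0.177 and 0.229.

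Lyve1, Entpd1 and Vxn were chosen for their spread and the 5 rats for their distance, so their overlap is a description only. In Lyve1 and Entpd1 all 5 rats that stood apart were below the untreated range, and in Vxn all 5 were above it. Cd163, the scavenger receptor of macrophages, showed the same form at a low level, with 2.54 to 3.08 CPM in untreated and 0.635 to 4.59 CPM in treated rats. Smaller spread in treated rats was seen in Top3b, a topoisomerase, with 55.1 to 77.8 CPM in untreated and 57.8 to 69.5 CPM in treated rats, and in Spice1, a protein of the spindle and centriole, with 8.79 to 17.7 and 10.3 to 14.7 CPM. Per1, a clock gene, was at 47.0, 60.5 and 64.3 CPM in untreated rats 2, 1 and 3 and at 131 to 175 CPM in untreated rats 6, 4 and 5, against 48.5 to 149 CPM in treated rats. Times of day of sampling are not given in the labels. None of these passed after adjustment. Without the 4 rats with urothelial RNA 5 genes passed in limma's test, Vxn with larger spread in treated rats (adjusted p = 0.0365) and Per1, F13a1, RT1-CE13 and 1 gene without a symbol with smaller spread (0.0365 to 0.0452). In simulated data limma made 34 false calls of smaller spread beside 172 true ones, so the calls of smaller spread are uncertain. Without 1 rat at most 2 genes passed, with 2 without i.v. ASC rat 4 or untreated rat 4 or 5, and 1 without i.v. ASC rat 5 or untreated rat 1, 2, 3 or 6.

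The spread of list means relative to untreated rats differed widely between lists, and marker and pathway lists were found at both ends. The standard deviation of the mean log2 CPM over the 16 treated rats was 4.85 times that over the 6 untreated rats for fibroblast markers, 3.67 times for complement, 3.54 times for macrophage markers, 3.01 times for endothelial markers and 2.76 times for Wnt signalling. It was 1.26 times for complex I, 1.19 times for proximal tubule markers, 0.785 times for thick ascending limb and distal tubule markers and 0.572 times for blood genes. All 5 rats that stood apart were above every untreated rat in the means of complex I, the citrate cycle and drug metabolism. They were below every untreated rat in the means of the matrix, MHC class II, fibroblast, macrophage, T and NK cell, podocyte and endothelial lists. The 5 rats were chosen by their distance over all genes, so list means outside the untreated range follow in part from the choice. Of the other 11 treated rats, 3 were above the untreated range in complex I, 3 in drug metabolism and 0 in the citrate cycle, and 0 of 11 below it in the fibroblast list, although 4 of 11 were below it in the podocyte and in the endothelial list. The part of these 5 rats in the differences between groups was not tested beyond the values without them.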

How the data were processed

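RNA from the left kidney of 22 rats had been sequenced on a BGISEQ-500. The deposited values are estimated counts per gene, and the TPM values were also made by the authors; the submitters' processing notes name Trim Galore 0.6.4, kallisto 0.4.6 and the build rn6, and the strand setting of the counting is not given in the sources used here. Of the estimated counts 14.1% were not whole, and they were rounded. Totals were 12195682 to 14734772 per rat, and TPM summed to 959754 to 968550. Symbols for 17179 of 17334 Entrez identifiers came from the RefSeq GRCr8 table, which was used for names and promoters only. No value column was left unused (0), and pairs of rats within groups differed beyond sampling noise (chi-square per gene 7.53 to 147).

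The groups were taken from the treatment labels. In R 4.3.3, edgeR 4.0.16 (filterByExpr, TMM, quasi-likelihood test, Benjamini-Hochberg, threshold 0.05, two-sided) compared 16 treated with 6 untreated rats over 12867 genes, and a fit of 4 groups gave each group's difference and the test among the 3 treated groups. Spread was tested with limma 3.58.1 on absolute deviations of log2 CPM (prior count 2) from the group mean, and the distance between rats with an exact permutation test. DESeq2 1.42.0, RLE factors, other filters, limma on log2(TPM + 1) and log2(TPM + 0.1), 1 surrogate variable (sva 3.50.0), the library number, the proximal tubule mean, and leaving out rats were alternatives. Leaving out the rats that stood apart or held urothelial RNA, the proximal tubule covariate and the F test of variances were chosen after seeing the data.

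Named genes were the 5 in each direction with the smallest p, the 6 in each direction with the same sign in all 3 groups, the 3 with the larger and the 3 with the smaller spread, and the member of each of 38 lists with the smallest p, besides those said to be chosen after their values were seen. The members and lists were chosen with earlier results of these data known. Tested on simulated data with 12811 genes, the pooled edgeR test recovered 180 of 198 genes with a 2-fold difference. For spread, with 12820 genes, limma recovered 32 of 200 genes with more and 172 of 200 with less spread. It also made 2 and 34 false calls among the 12620 other genes. The F test of variances recovered 163 of 200 and 188 of 200, with 6 and 13 false calls.

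The values of 1 named gene are not reported here.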

Additional observations from a re-analysis of the deposited data

Results flagged for a closer look

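Over the 73 named genes, 292 checks asked whether 1 rat lay far from the others of its group (Dixon's test at 95%), and 12 did, where chance gives about 1 in 20. The values are log2 CPM, with CPM in parentheses. Among untreated rats, rat 1 stood high for Car3 at 7.49 (180 against 55.8 to 76.5) and for Megf6 at 4.78 (27.2 against 7.79 to 12.3), and low for Star at -0.874 (0.393 against 0.922 to 1.36). Untreated rat 5 was low for Rpl38 at 2.52 (5.57 against 11.2 to 14.7). After ASC i.p., rat 3 was low for Lama1 at 4.2 (18.2 against 24 to 28.1) and rat 4 high for Megf6 at 3.95 (15.3 against 4.60 to 6.98).

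After ASC i.v., rat 5 was low for Per1 at 5.60 (48.5 against 87.7 to 125) and for Hba-a1 at 6.00 (63.8 against 138 to 215), and high for Pde4a at 4.02 (16 against 11.3 to 12.8). Rat 6 was low for Ccm2 at 5.60 (48.4 against 56.5 to 60.0) and for Rpl38 at -2.71 (0 against 5.11 to 13). Rat 3 was low for Car3 at 3.53 (11.4 against 32.9 to 61.6). Among the named genes, Upk1b and Fat2 differed between the 3 treated groups, since edgeR gave them adjusted p-values of 0.0283 and 0.0476.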

How the results depend on the processing

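No paired analysis was possible because the groups hold different animals and the labels give no replicate numbers that the groups share. The pooled comparison called 0 genes under every alternative run. The number of genes with the same sign in all 3 groups was 1753 higher and 7602 lower on log2(TPM + 1), 1737 and 7633 on log2(TPM + 0.1), and 2387 higher without the rats with urothelial RNA. Leaving out 1 rat gave 2953 to 4084 higher and 3312 to 4541 lower. The genes that differed among the treated groups numbered 26 by DESeq2's likelihood ratio test and 0 with at least 10 counts in every rat, without the rats with urothelial RNA or without the 5 rats that stood apart, and 0 to 18 without 1 rat. Genes with another spread numbered 1 (Rpl38) from the mean of all treated rats, 5 without the rats with urothelial RNA and 0 to 2 without 1 rat. The median log2 ratio of standard deviations was 0.35 for ASC-derived CM alone, 0.18 without the 5 rats and 0.44 to 0.56 without 1 rat. The 5 rats were chosen by their distance, so the 0.18 is no test of spread. The difference in distance was 0.108 to 0.147 without 1 rat, with exact permutation p from 0.0433 to 0.156. The cause of these shifts was not tested.

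Signs turned for genes near 0 or carried by few rats. RT1-Bb had -0.0328 and -0.0330 on log2(TPM + 1) and log2(TPM + 0.1). The median of all genes was -0.0987 on the first of these scales. With 1 surrogate variable Vxn had -0.23, Spice1 0.0055, Tagln 0.13, Cd163 0.17 and Cyp1a1 -0.13. With the library number Vxn had -0.13, Spice1 0.0879, Per1 0.21 and Star 0.077. Without the 5 rats Vxn had -0.11, Tagln 0.10 and Cd163 0.11. Without ASC i.v. Spice1 had 0.0125, Upk1b -0.0333 and Fat2 -0.14. Without the rats with urothelial RNA Fat2 had -0.18 and Upk1a -0.16. Leaving out 1 rat gave -0.13 to 0.0793 for Spice1, -0.25 to 0.10 for Per1 and -0.77 to 0.19 for Hba-a1. List medians turned as well. With the library number they were 0.001 for Wnt signalling, 0.01 for NF-kB, TNF and JAK-STAT and 0.02 for interferon response. On the other side were -0.05 for principal cells, -0.005 for smooth muscle and -0.03 for tubular injury. Besides the 3 metabolic lists, 1 surrogate variable gave -0.03 for gluconeogenesis, -0.02 for proximal tubule, -0.03 for principal cells, 0.007 for apoptosis, 0.07 for NF-kB, TNF and JAK-STAT, 0.11 for interferon response, 0.02 for cell division and 0.05 for immediate early genes.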
